A study of Mus musculus with 6 samples.

Results

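This account covers 35 genes that encode parts of the adult sarcomere and its Z disc, out of 57010 rows of one gene expression table. The genes were chosen by symbol, from a fixed list of names that was set with earlier results of these data known. Each symbol matched 1 row. The data are bulk RNA sequencing of skin from 6 mice taken when a diabetic ulcer experiment ended, 1 library per mouse. Of these, 3 wild-type mice (labelled WT) received a gel with CST on the skin, where CST stands for cortistatin going by the title of the series, a somatostatin-like neuropeptide. The other 3 WT mice received a gel with Yoda1, which opens the mechanosensitive cation channel Piezo1. The labels give keratinocytes and skin cell beside the tissue skin, and the sources used here give no strain, sex, age or treatment time. No vehicle or untreated skin was analysed here, so a value that differs can have moved in either treatment.

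The sarcomere is the contractile unit of striated muscle. Thin filaments of actin are anchored in the Z disc and slide along thick filaments of myosin, while titin spans from Z disc to M band and nebulin runs along the thin filament. Epidermis and dermis have no sarcomeres, but mouse skin lies on a thin sheet of striated muscle, the panniculus carnosus, which is rich in fast fibres. In bulk RNA, fewer muscle cells and less RNA per muscle cell cannot be told apart.

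The level of each gene is given as FPKM, fragments per kilobase of gene length, scaled to depth, as the authors deposited it. The 35 genes together made up 1.78%, 1.024% and 1.33% of all FPKM in CST mice 1, 2 and 3, against 0.0413%, 0.713% and 0.126% in Yoda1 mice 1, 2 and 3. The mean share was 1.38% ± 0.383 in CST skin and 0.293% ± 0.366 in Yoda1 skin (SD, n = 3 each). The 2 groups did not overlap, but the lowest CST library exceeded Yoda1 mouse 2 by only 1.44-fold, and the Yoda1 libraries differed among themselves far more than the CST libraries did. Of the 35 genes, 34 reached 1 FPKM in each CST library, against 15, 33 and 29 in Yoda1 mice 1, 2 and 3.

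**Figure D1:**
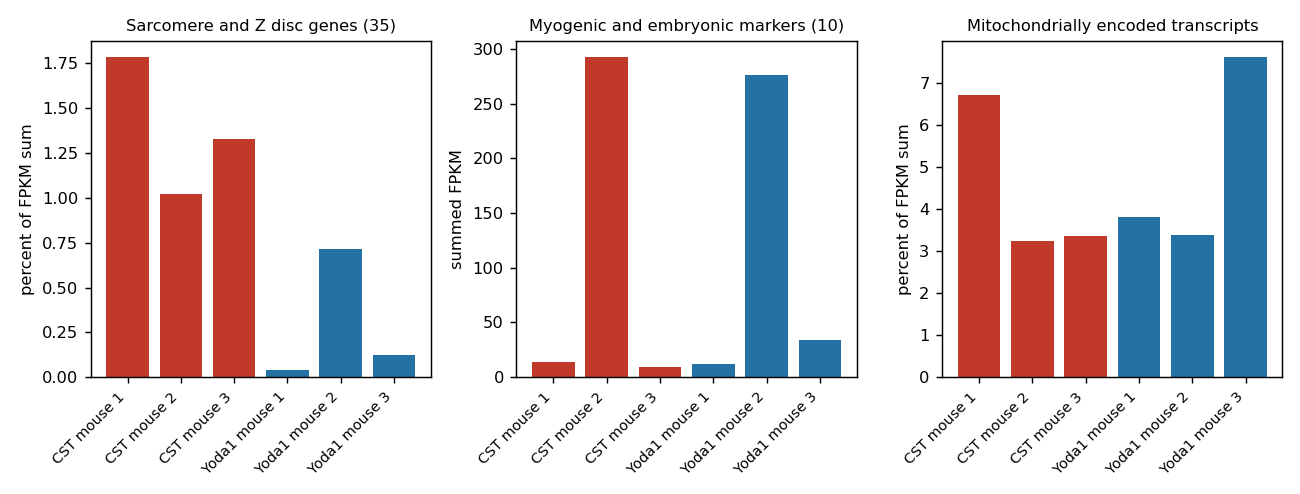
Bars give 1 library each, CST in red and Yoda1 in blue: the share of the FPKM sum held by the 35 sarcomere and Z disc genes, the summed FPKM of 10 satellite cell, myogenic and embryonic markers, and the share of mitochondrially encoded transcripts. The sarcomere share runs from 1.024% to 1.78% in CST and from 0.0413% to 0.713% in Yoda1 libraries, and the myogenic markers stand at 292 and 276 FPKM in CST mouse 2 and Yoda1 mouse 2 and at 34.4 or less in the other 4.

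Each library held 23791352 to 29620526 reads, a depth worked out from the size of the FPKM steps. The share of all FPKM held by mitochondrially encoded transcripts was 6.72% in CST mouse 1 and 7.61% in Yoda1 mouse 3, and 3.25% to 3.81% elsewhere. Its part in the results below was not tested. The keratinocyte label was set against 14 keratinocyte markers, which summed to 21170 to 27784.5 FPKM in CST and 15800 to 37516 FPKM in Yoda1 libraries. Keratinocyte transcripts were therefore abundant in each library, and the sarcomere genes were measured beside them.

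The authors' gene lengths bear on any comparison between genes. The length that each FPKM value implies lay within 1 base of the mean length of the gene's GENCODE M21 transcripts in 30 of the 35 genes. For Ttn it was 18845 bases, although the longest annotated transcript has 106824, which is 5.67 times more. Ttn therefore ranked 25th of 35 by CST mean FPKM and 33rd when the recovered reads were divided by the longest transcript. For 31 of the 35 genes the rank moved by 4 places or fewer, and the 5 highest kept their order.

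The 5 highest genes were Acta1, Mylpf, Myl1, Tpm2 and Des. They held 83.0%, 84.5% and 83.5% of the summed FPKM of the set in CST mice 1 to 3, against 90.9%, 85.4% and 88.4% in Yoda1 mice 1 to 3. Acta1 alone held 23.4% to 33.0% in the CST libraries and 9.94% to 26.5% in the Yoda1 libraries. Tpm2 held 5.63% to 11.5% in the CST libraries but 52.5% in Yoda1 mouse 1 and 24.3% in Yoda1 mouse 3, where the other members were low.

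**Figure D2:**
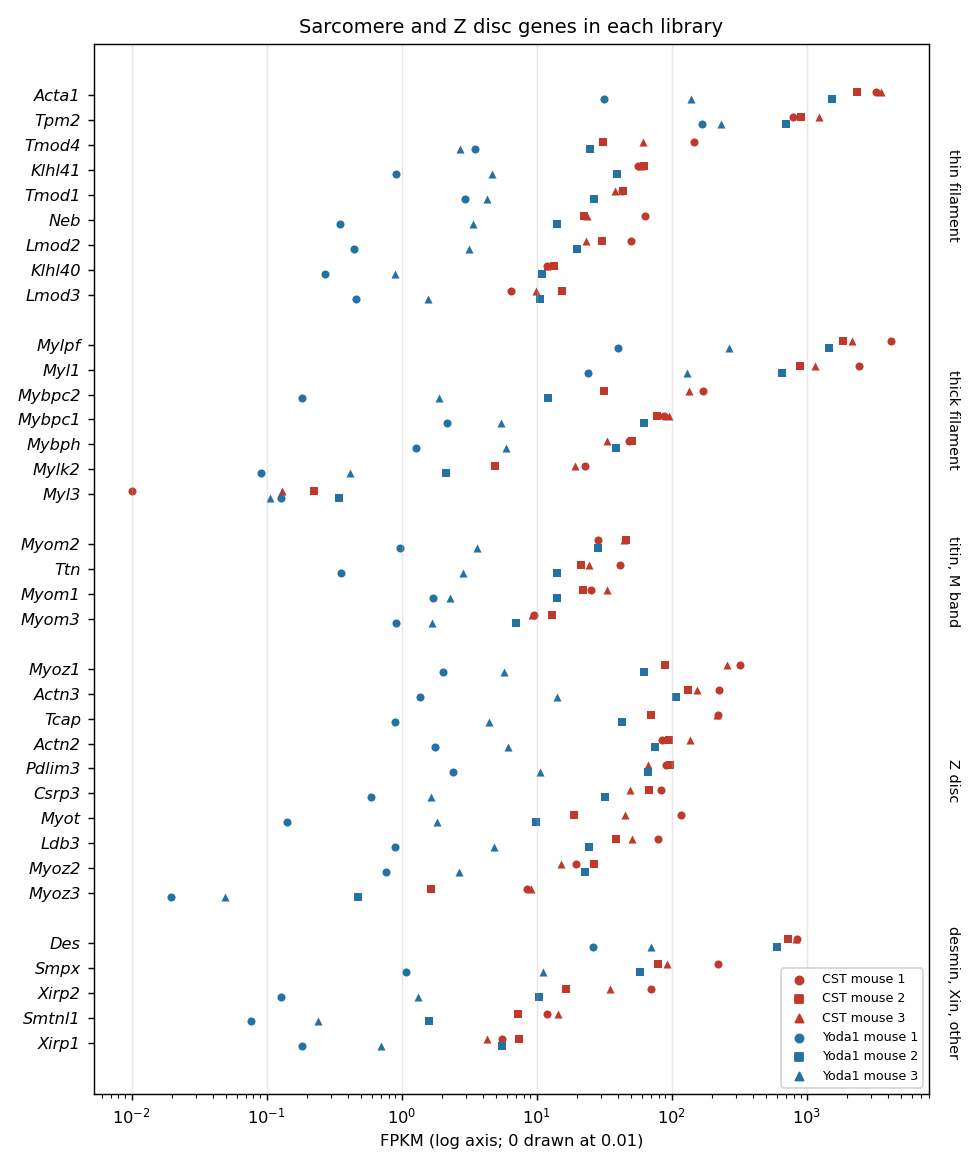
Each point is the FPKM of 1 gene in 1 library on a log axis, CST (red) above Yoda1 (blue) in each row, with mouse numbers by symbol and genes grouped by role. Yoda1 mouse 2 (blue squares) is the Yoda1 library nearest the CST points, while Yoda1 mice 1 and 3 lie to the left in 34 of the 35 genes.

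The upstream sequences of 5 members are shown because these genes mark the ends of the range: Acta1 and Mylpf had the highest levels, Mybpc2 the largest change on the log2(FPKM + 1) scale, Smtnl1 the smallest p, and Myl3 was hardly detected. The sequences are the 250 bases before the RefSeq gene start on GRCm38.p6, written 5′ to 3′ on the gene's strand. Capitals mark matches, on either strand, to the E box CANNTG of myogenic factors, the CArG box of serum response factor, the site of MEF2 factors and the TATA box TATAAA. The windows are chr8:123894776-123895025 (minus strand), chr7:127211358-127211607 (plus), chr7:44524670-44524919 (minus), chr2:84822653-84822902 (minus) and chr9:110763428-110763677 (plus), in the order printed.
Acta1: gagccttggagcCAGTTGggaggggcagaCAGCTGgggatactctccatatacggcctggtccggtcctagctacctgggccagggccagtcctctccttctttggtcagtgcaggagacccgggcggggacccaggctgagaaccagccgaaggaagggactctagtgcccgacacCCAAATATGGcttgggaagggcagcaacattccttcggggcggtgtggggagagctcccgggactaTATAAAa
Mylpf: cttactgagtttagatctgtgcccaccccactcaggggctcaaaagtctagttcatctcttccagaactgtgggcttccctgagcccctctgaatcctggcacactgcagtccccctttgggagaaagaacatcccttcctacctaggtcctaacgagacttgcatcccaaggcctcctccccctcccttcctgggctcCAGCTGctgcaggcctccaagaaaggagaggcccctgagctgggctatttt
Mybpc2: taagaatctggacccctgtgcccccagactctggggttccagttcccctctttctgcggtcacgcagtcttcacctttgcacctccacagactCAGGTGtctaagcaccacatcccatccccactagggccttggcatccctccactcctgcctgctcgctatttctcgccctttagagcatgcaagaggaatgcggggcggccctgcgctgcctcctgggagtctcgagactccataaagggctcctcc
Smtnl1: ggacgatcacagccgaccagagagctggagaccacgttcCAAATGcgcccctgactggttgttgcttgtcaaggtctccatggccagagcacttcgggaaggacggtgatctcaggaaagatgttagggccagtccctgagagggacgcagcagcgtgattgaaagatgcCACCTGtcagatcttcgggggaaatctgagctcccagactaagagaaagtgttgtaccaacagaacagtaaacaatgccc
Myl3: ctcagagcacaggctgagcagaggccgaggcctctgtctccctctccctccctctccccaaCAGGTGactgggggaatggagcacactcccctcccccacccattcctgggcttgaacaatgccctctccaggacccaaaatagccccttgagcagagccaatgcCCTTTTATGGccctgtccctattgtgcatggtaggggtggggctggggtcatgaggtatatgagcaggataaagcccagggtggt

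Of the 35 genes, 25 had an entry in the promoter table, with 27 starts. The E box CANNTG stood in 85.2% of these 27 windows, against 66.2% of 32851 windows of the same length over the genome. Its palindromic form CAGCTG, which is included in that count, stood in 40.7% of the member windows, against 13.0% over the genome. It was found before Acta1, Mylpf, Myl1, Des, Tpm2 and 6 further genes. The CArG box was found in 5 windows (18.5%, against 1.47% over the genome), of Acta1, Ldb3, Myl3 and Myom1. The MEF2 site was also found in 5 windows (18.5%, against 2.92%), of Klhl41, Myom3, Myoz2, Ttn and Xirp2, and TATAAA in 3 (11.1%, against 12.4%). A match is a description of these letters and shows no binding. Myl3, which was hardly detected, also carried a CArG box and an E box.

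Among thin filament genes, Acta1 encodes skeletal muscle alpha-actin, the core of the filament (chromosome 8, 123891769 to 123894751 on GRCm38). Acta1 stood at 3272, 2356 and 3538 FPKM in CST mice 1 to 3, against 31.6, 1539 and 140.0 in Yoda1 mice 1 to 3. Each CST value was above each Yoda1 value, and Yoda1 mouse 2 reached 50.4% of the CST mean while Yoda1 mouse 1 reached 1.03%. The log2 change was 3.97 (SE 1.19) as log2(FPKM + 1) in CST less that in Yoda1, and did not pass (limma adjusted p = 0.663). Acta1 is close in sequence to Actc1, the cardiac actin, and the sources used here do not say how the counting shared reads between them.

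Tpm2, beta-tropomyosin, which lies along actin and is also made by smooth muscle, had the smallest ratio between the groups among the abundant members. It stood at 787, 909.6 and 1234 FPKM in CST mice, against 167, 697 and 231 in Yoda1 mice. Yoda1 mouse 1 stood at 17.1% of the CST mean for Tpm2, and at 0.163% to 8.57% of it for the other 33 tested members.

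Tmod1 and Tmod4 cap the pointed ends of thin filaments, and Lmod2 and Lmod3 nucleate and lengthen them. Tmod4 stood at 146, 31.2 and 61.4 FPKM in CST mice, against 3.50, 25.0 and 2.71 in Yoda1 mice. Its log2 change of 3.14 (SE 0.81, limma adjusted p = 0.579) had the smallest p of the thin filament genes, and CST mouse 1 lay well above the other 2 CST mice. Lmod3 went the other way within the CST group: it stood at 6.46, 15.5 and 9.82 FPKM in CST mice, against 0.457, 10.6 and 1.58 in Yoda1 mice. The groups overlapped, since Yoda1 mouse 2 lay above CST mice 1 and 3, and the log2 change of 1.64 (SE 0.71, limma adjusted p = 1.00) was the smallest of the thin filament genes on this scale, whereas with a pseudocount of 0.1 Tpm2 (1.68) was below Lmod3 (2.22).

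Klhl40 and Klhl41, kelch proteins that stabilise nebulin and Lmod3, varied little among CST mice. Klhl40 stood at 11.9, 13.4 and 12.0 FPKM in CST mice, against 0.271, 11.0 and 0.900 in Yoda1 mice, so Yoda1 mouse 2 lay just below the CST values. Klhl41 stood at 56.1, 62.5 and 58.9 FPKM in CST mice, against 0.908, 39.2 and 4.64 in Yoda1 mice. Neb, which encodes nebulin, averaged 36.5 ± 23.3 FPKM in CST and 5.94 ± 7.20 in Yoda1 skin (SD, n = 3 each). In 8 of the 9 thin filament genes the lowest CST value exceeded the highest Yoda1 value, as in 4.52% of all tested genes, and Lmod3 was the exception.

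Among thick filament genes, the light chains Mylpf and Myl1 of fast fibre myosin were by far the most abundant. Mylpf (chromosome 7, 127208890 to 127214298 on GRCm38) stood at 4235, 1854 and 2183 FPKM in CST mice, against 40.3, 1457 and 267 in Yoda1 mice, and the log2 change was 3.35 (SE 1.12, limma adjusted p = 0.767). Myl3, the light chain of slow fibres and of the heart ventricle, stood at 0, 0.226 and 0.129 FPKM in CST mice, against 0.127, 0.342 and 0.105 in Yoda1 mice. These values rest on 8 reads or fewer in each library, and 3 reads in CST mouse 1 would be 0.156 FPKM. Myl3 was the 1 member below the minimum mean of 1 FPKM and had no test.

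Mybpc1 and Mybpc2 encode the slow and the fast form of myosin-binding protein C, which crosslinks thick filaments. Mybpc2 stood at 171, 31.3 and 133 FPKM in CST mice, against 0.182, 12.1 and 1.88 in Yoda1 mice. Its log2 change of 4.68 (SE 0.92, limma adjusted p = 0.521) was the largest of the 34 tested members on this scale, whereas by the fold between group means Myoz3 (35.1) exceeded Mybpc2 (23.6). Its lowest CST value was 2.58 times its highest Yoda1 value. Mybpc1 was even across the CST mice at 87.8, 78.1 and 95.4 FPKM, against 2.16, 62.7 and 5.44 in Yoda1 mice. Its log2 change was 3.01.

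Mybph, a relative of myosin-binding protein C, stood at 48.0, 50.7 and 33.1 FPKM in CST mice, against 1.27, 38.7 and 5.92 in Yoda1 mice. Yoda1 mouse 2 lay above CST mouse 3, and the log2 change was 2.37 (SE 0.89, limma adjusted p = 0.961). Mylk2, the kinase that phosphorylates the fast regulatory light chain, stood at 22.8, 4.90 and 19.2 FPKM in CST mice, against 0.0915, 2.12 and 0.413 in Yoda1 mice. The log2 change of Mylk2 was 3.07 (SE 0.59, limma adjusted p = 0.521), and the groups did not overlap although CST mouse 2 lay at 23.3% of the mean of CST mice 1 and 3.

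Titin and the myomesins of the M band hold thick filaments in register. Their median change was 2.53 on the log2(FPKM + 1) scale, against 2.76 to 3.30 in the other groups by role. By the fold between group means they ran from 3.28 (Myom3) to 5.03 (Ttn). This lay within the range of the thin filament genes, 2.51 (Lmod3) to 7.65 (Tmod4). Ttn (chromosome 2, 76703980 to 76982547 on GRCm38) stood at 41.4, 21.4 and 24.4 FPKM in CST mice, against 0.357, 14.1 and 2.83 in Yoda1 mice, and the log2 change was 2.75 (SE 0.77, limma adjusted p = 0.607). Myom1 stood at 25.4, 22.1 and 33.3 FPKM in CST mice, against 1.70, 14.03 and 2.28 in Yoda1 mice, and the log2 change was 2.43 (SE 0.60, limma adjusted p = 0.561). In both genes Yoda1 mouse 2 reached 48.7% to 52.1% of the CST mean.

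Myom2, the myomesin of fast fibres, stood at 28.4, 45.7 and 44.3 FPKM in CST mice, against 0.978, 28.3 and 3.61 in Yoda1 mice, and CST mouse 1 lay only 1.01 times above Yoda1 mouse 2. Its log2 change was 2.62 (SE 0.86, limma adjusted p = 0.753). Myom3 stood at 9.50, 12.9 and 9.31 FPKM in CST mice, against 0.906, 7.06 and 1.69 in Yoda1 mice, with the smallest log2 change of these 4 genes, 1.73 (SE 0.50, limma adjusted p = 0.622). In these 4 genes the lowest CST value exceeded the highest Yoda1 value, as in 4.52% of all tested genes.

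At the Z disc, alpha-actinins 2 and 3 crosslink actin, and Actn3 is the form restricted to fast fibres. Actn2 stood at 84.2, 96.1 and 138 FPKM in CST mice, against 1.77, 74.9 and 6.15 in Yoda1 mice. Actn3 stood at 224, 133 and 154 FPKM in CST mice, against 1.38, 109 and 14.2 in Yoda1 mice. In both genes Yoda1 mouse 2 lay below the lowest CST mouse, at 70.6% of the CST mean for Actn2 and 63.8% for Actn3.

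Tcap, telethonin, which ties titin to the Z disc (chromosome 11, 98383811 to 98384953 on GRCm38), stood at 222, 70.0 and 216 FPKM in CST mice, against 0.890, 43.2 and 4.43 in Yoda1 mice. Its log2 change of 4.30 (SE 1.05, limma adjusted p = 0.561) was the largest of the Z disc genes on the log2(FPKM + 1) scale. Ldb3, a PDZ-LIM protein that binds alpha-actinin, averaged 56.1 ± 20.4 FPKM in CST and 10.03 ± 12.6 in Yoda1 skin (SD, n = 3 each).

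The 3 myozenins, which tether calcineurin to the Z disc, had unlike values. Myoz1, the Z disc gene of highest mean FPKM in CST skin, stood at 321, 88.6 and 259 FPKM in CST mice, against 2.04, 62.7 and 5.78 in Yoda1 mice, and the log2 change was 4.16 (SE 1.04, limma adjusted p = 0.561). Myoz2, the form of slow fibres and heart, stood at 19.5, 26.7 and 15.0 FPKM in CST mice, against 0.767, 22.7 and 2.68 in Yoda1 mice, and the log2 change was 1.96 (SE 0.84, limma adjusted p = 1.00). For Myoz2 the groups overlapped, since Yoda1 mouse 2 lay above CST mice 1 and 3. Myoz3 stood at 8.44, 1.64 and 9.04 FPKM in CST mice, against 0.0197, 0.477 and 0.0489 in Yoda1 mice, and the log2 change was 2.44 (SE 0.51, limma adjusted p = 0.521). The fold between the mean FPKM of the groups was 35.1 for Myoz3, 9.48 for Myoz1 and 2.34 for Myoz2, and the Myoz3 value of Yoda1 mouse 1 rests on 2 reads.

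Myot, myotilin, stood at 118, 19.1 and 45.2 FPKM in CST mice, against 0.141, 9.88 and 1.82 in Yoda1 mice. Csrp3, the muscle LIM protein, stood at 82.9, 67.4 and 49.1 FPKM in CST mice, against 0.591, 31.9 and 1.65 in Yoda1 mice. In neither did the groups overlap, with log2 changes of 3.87 and 3.67. Pdlim3, another alpha-actinin partner, was level between CST mouse 3 at 66.31 FPKM and Yoda1 mouse 2 at 66.32, while Yoda1 mice 1 and 3 stood at 2.42 and 10.5.

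Des encodes desmin, the intermediate filament that links neighbouring Z discs and that smooth muscle makes too. It stood at 849, 729.7 and 826 FPKM in CST mice, against 26.1, 604 and 70.1 in Yoda1 mice, and the log2 change was 2.93 (SE 0.97, limma adjusted p = 0.760). CST mice were close to each other, and Yoda1 mouse 2 reached 75.3% of their mean.

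Xirp1 and Xirp2 carry Xin repeats that bind actin at the ends and attachment sites of muscle cells. Xirp2 stood at 70.5, 16.5 and 34.9 FPKM in CST mice, against 0.128, 10.4 and 1.32 in Yoda1 mice, and the log2 change was 3.52 (SE 0.84, limma adjusted p = 0.542). Xirp1 stood at 5.55, 7.44 and 4.27 FPKM in CST mice, against 0.183, 5.50 and 0.707 in Yoda1 mice, and the log2 change was 1.49 (SE 0.59, limma adjusted p = 1.00). Xirp1 had the smallest change of the 34 tested members on this scale, whereas with a pseudocount of 0.1 the change was 2.40 for Xirp1 and 1.68 for Tpm2. The Xirp1 value in Yoda1 mouse 2 lay above that of CST mouse 3 and just below that of CST mouse 1.

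Smtnl1, a smoothelin-like protein of fast muscle, stood at 11.8, 7.26 and 14.4 FPKM in CST mice, against 0.0767, 1.61 and 0.239 in Yoda1 mice. Its lowest CST value was 4.51 times its highest Yoda1 value, the widest such gap of the set, and its log2 change was 2.96 (SE 0.39, limma adjusted p = 0.521). The Yoda1 values of Smtnl1 rest on 4, 83 and 10 reads. Their mean of 0.641 FPKM lay below the pseudocount of 1, which narrows the spread of low values. With a pseudocount of 0.1 the change was 4.53 (limma adjusted p = 0.604). Smpx, a small protein of the costamere, averaged 131 ± 78.9 FPKM in CST and 23.5 ± 30.7 in Yoda1 skin (SD, n = 3 each).

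**Figure D3:**
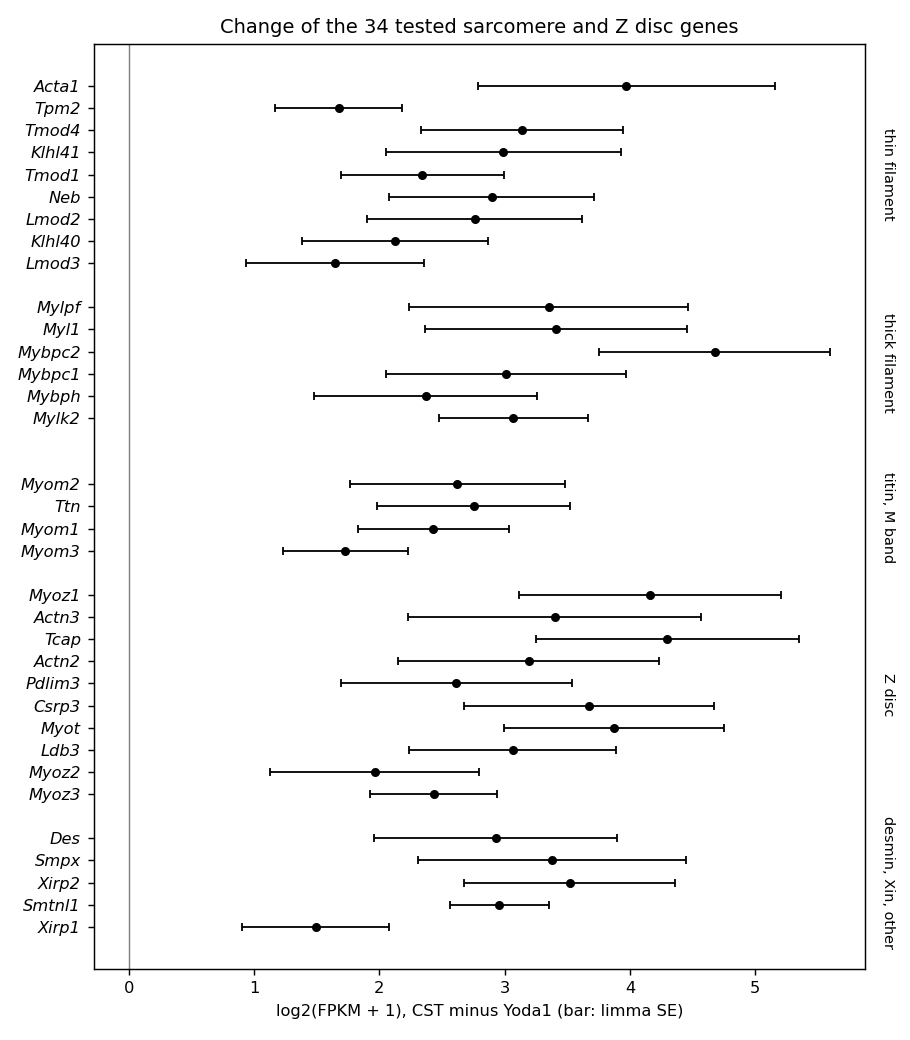
Points give the log2(FPKM + 1) change, CST minus Yoda1, of the 34 tested genes grouped by role, with the limma standard error as bars. The changes run from 1.49 for Xirp1 to 4.68 for Mybpc2, with Smtnl1 having the shortest bar (SE 0.39). The Yoda1 mean of Smtnl1, 0.641 FPKM, lies below the pseudocount of 1, which narrows the spread of low values.

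Tested by limma over the 14588 genes whose mean reached 1 FPKM, 0 of the 34 tested members passed an adjusted p of 0.05, and the share of all genes called was 0%. At an unadjusted p under 0.05, 33 members were higher in CST, Lmod3 at 0.0501 being the exception, where 3.21% of all tested genes met that rule in that direction. By limma-voom on the recovered reads 0 members passed as well, with 585 genes at an unadjusted p under 0.05 over the whole table, where limma had 584. In 29 members the lowest CST value exceeded the highest Yoda1 value, against 4.52% of all tested genes, and the 5 that overlapped were Lmod3, Mybph, Myoz2, Pdlim3 and Xirp1. In 4 members the gap was at least 2-fold (Mybpc2, Mylk2, Myoz3 and Smtnl1), but the share of all tested genes with such a gap was not counted. The median log2 change was 2.97 over the members and -0.01 over all tested genes. Among the 45 genes (0.308%) with a log2 change above 3 were 16 members. The members were chosen with earlier results of these data known, so these counts only describe the list. Of the tested members 31 had a mean of at least 1 FPKM in both groups. Mylk2, Myoz3 and Smtnl1, all with a gap of at least 2-fold, reached the minimum only through the CST libraries. Passing the filter in this way favours a wide gap.

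The Yoda1 group was widely spread. Yoda1 mouse 2 was the highest Yoda1 library in 34 of 34 tested members, and Yoda1 mouse 1 was the lowest of the 6 libraries in 33, Tmod4 being the exception. Between Yoda1 mice the members differed by a median of 30.2-fold (mouse 2 over mouse 1) and 6.74-fold (mouse 2 over mouse 3), whereas between CST mice the median size of the difference, whichever mouse was higher, was 1.41-fold to 1.63-fold. Without Yoda1 mouse 2, 33 of 34 members passed by limma (smallest adjusted p = 0.00637, median log2 change 3.91), Myoz3 being the exception, and 0.926% of all tested genes were called higher in CST. Members made up 24.4% of those 135 calls. Since Yoda1 mouse 2 was the highest Yoda1 library in each tested member, leaving it out widens the difference by itself. Without CST mouse 2 only Myoz3 among the members passed (adjusted p = 0.0456 by limma), of 8 genes called, which is 0.055% of those tested. Without CST mouse 1, CST mouse 3, Yoda1 mouse 1 or Yoda1 mouse 3, 0 genes were called higher in CST. With library weights estimated by limma, the highest being that of Yoda1 mouse 1, 34 of 34 members were called (4.49% of all tested genes were called higher in CST). The weights were 12.8, 0.657 and 0.193 for Yoda1 mice 1, 2 and 3. Within the Yoda1 group these calls therefore rest mostly on mouse 1, and the estimation of the weights stopped short of its tolerance. The Yoda1 group held 1 library nearer the CST level and 2 far below it. Over the tested members, Yoda1 mouse 2 ran from 7.48% (Myoz3) to 111% (Myoz2) of the CST mean.

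The make-up of the set differed between libraries apart from its total. To see this, each log2 FPKM was set against the median member of the same library. By this measure CST mouse 2 and Yoda1 mouse 2 were the most alike of the 15 pairs of libraries, with an SD of 0.43 over the 34 log2 ratios. CST mice 1 and 3 had an SD of 0.62, whereas CST mouse 2 had 1.05 against CST mouse 1 and 0.85 against CST mouse 3. In 34 of 34 members CST mouse 2 was higher than Yoda1 mouse 2, by a median of 1.52-fold. The most alike pair thus crossed the treatments, while the next, Yoda1 mice 2 and 3 with an SD of 0.54, was within one.

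Relative to the median member, 8 genes were at least 1 log2 unit higher in the mean of CST mice 1 and 3 than in CST mouse 2. They were Myoz3 (1.89), Mybpc2 (1.74), Mylk2 (1.57), Myot (1.41), Myoz1 (1.17), Tcap (1.12), Tmod4 (1.07) and Xirp2 (1.06). Members known from fast fibres ran from Myoz3 (1.89) to Myom2 (-0.89), and Mybpc2, Mylk2, Myoz1 and Myoz3 are among these 8. Myl1 was at 0.38, Smtnl1 at 0.32, Mylpf at 0.18 and Actn3 at -0.05. Of the slow forms, Mybpc1 was at -0.30 and Myoz2 at -1.17. At the other end Lmod3 (-1.49), Myoz2 (-1.17) and Xirp1 (-1.14) were at least 1 log2 unit lower. Acta1 (0.00) and Ttn (0.04) lay near the middle. These libraries were picked out by their values, so the differences are a description with no test.

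**Figure D4:**
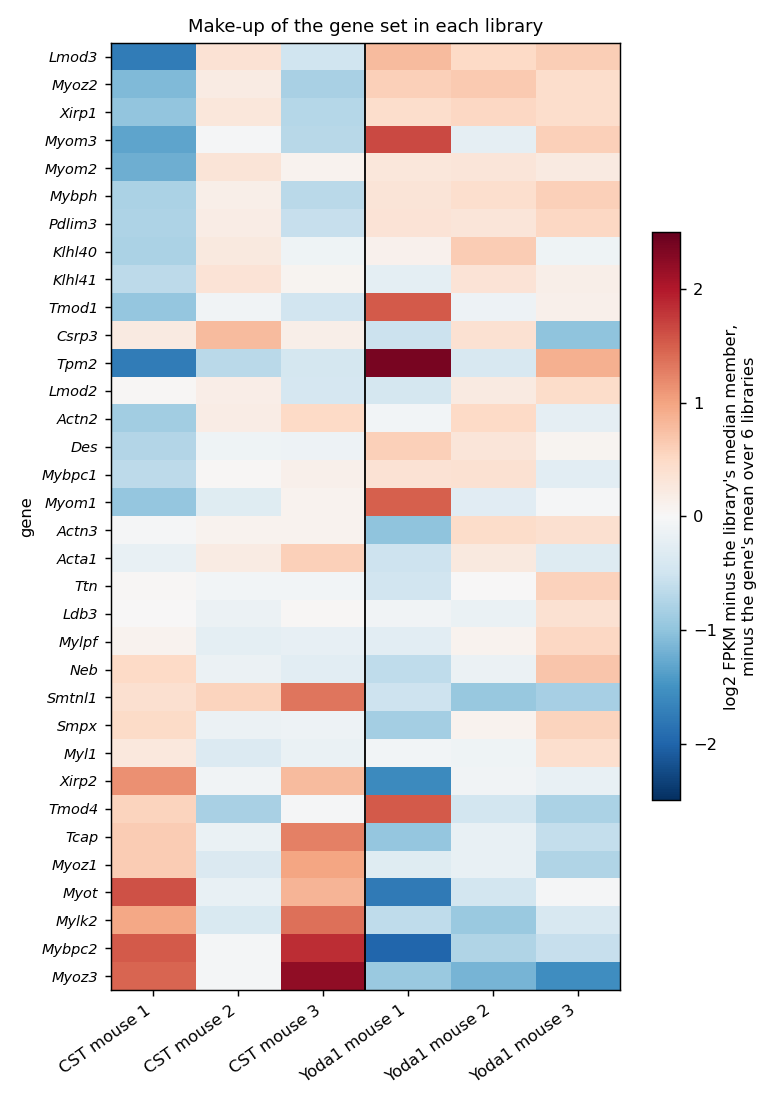
Colours give each gene's log2 FPKM minus the median member of that library, less the gene's mean over the 6 libraries, with CST left of the line and Yoda1 right of it. Genes are ordered by the difference between CST mice 1 and 3 and CST mouse 2, from Lmod3 (-1.49) to Myoz3 (1.89), and the columns of CST mouse 2 and Yoda1 mouse 2 look alike (SD of log2 ratios 0.43).

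Ratios within families were compared for 9 pairs by an exact permutation test over libraries, two-sided, for which the smallest p with 3 against 3 is 0.1. No pair could pass, and the smallest p adjusted over the 9 pairs was 0.18. The log2 ratio of Myoz2 to Myoz1, of FPKM + 1, was -3.23 ± 1.33 in CST and -1.03 ± 0.35 in Yoda1 skin (SD, n = 3 each, exact permutation p = 0.1). It was -3.97, -1.69 and -4.02 in CST mice 1 to 3, against -0.78, -1.43 and -0.88 in Yoda1 mice 1 to 3, so the groups did not overlap although CST mouse 2 lay next to Yoda1 mouse 2. The ratio of Mybpc1 to Mybpc2 was -0.95, 1.29 and -0.48 in CST mice, against 1.42, 2.28 and 1.16 in Yoda1 mice, and here CST mouse 2 lay within the Yoda1 range (exact permutation p = 0.2). With a pseudocount of 0.1 CST mouse 2 (1.32) lay below the lowest Yoda1 mouse (1.49), and the groups did not overlap (exact permutation p = 0.1). The slow form thus exceeded the fast form in CST mouse 2 and in each Yoda1 mouse, and was below it in CST mice 1 and 3.

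The ratio of Xirp1 to Xirp2 was -2.42 ± 1.24 in CST and -0.39 ± 0.44 in Yoda1 skin (SD, n = 3 each, exact permutation p = 0.1). The ratio of Lmod2 to Lmod3 was 1.62 ± 1.00 in CST and 0.51 ± 0.46 in Yoda1 skin (SD, n = 3 each, exact permutation p = 0.1). The log2 ratio of Actn2 to Actn3 was -0.67 ± 0.65 in CST and -0.47 ± 0.66 in Yoda1 skin (SD, n = 3 each, exact permutation p = 0.8), a difference of -0.21 that became 0.16 without CST mouse 1 and 0.14 without Yoda1 mouse 1. In Yoda1 mouse 1 the FPKM values are near the pseudocount of 1, which draws each ratio towards 0.

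Of 47 further sarcomere, Z disc and costamere genes, 42 were tested and 0 passed in either direction (limma, 26 at an unadjusted p under 0.05). In 37 of the 42 the log2 change was positive, in 22 the groups did not overlap (CST above, as in 4.52% of all tested genes), and the median log2 change was 1.65. Speg, a kinase of the junctional membrane, stood at 6.78, 7.511 and 7.503 FPKM in CST mice, against 1.78, 3.83 and 2.32 in Yoda1 mice. Myh4, the myosin heavy chain of the fastest fibres, stood at 290.5, 82.7 and 425 FPKM in CST mice, against 0.906, 41.2 and 5.21 in Yoda1 mice. Cmya5 had a log2 change of 2.04. The slow troponin Tnni1, picked out after its values were seen, stood at 6.28, 145 and 5.18 FPKM in CST mice, against 6.44, 207 and 25.8 in Yoda1 mice. It was thus high in CST mouse 2 and Yoda1 mouse 2, and Myh7, the slow myosin heavy chain, did not exceed 0.284 FPKM in any library.

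A list of paralogues of the members, most of them from non-muscle and smooth muscle cells, showed no common direction. It also holds genes of striated muscle, among them Klhl31, Actc1, Mybpc3 and Mylk3. Of 37 such genes 35 were tested, 0 passed, 19 had a positive change and 16 a negative one, and the median log2 change was 0.01. In 6 of the 35 the CST values lay wholly above the Yoda1 values (4.52% of all tested genes) and in 2 wholly below (2.08%). The 4 with the smallest p were Smtnl2, Synm, Klhl31 and Tpm1. Synm, synemin, a partner of desmin, stood at 12.9, 4.26 and 10.3 FPKM in CST mice, against 1.57, 2.62 and 1.16 in Yoda1 mice. Tpm1, alpha-tropomyosin, stood at 1578, 759 and 1223 FPKM in CST mice, against 237, 728 and 208 in Yoda1 mice, and it stands in the list of further sarcomere genes too.

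**Figure D5:**
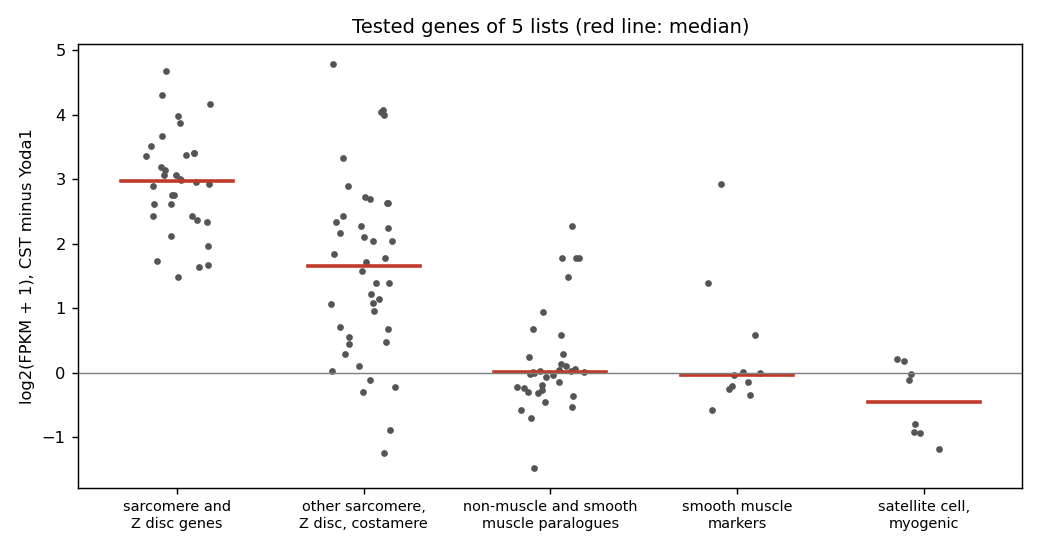
Each grey point is the log2(FPKM + 1) change, CST minus Yoda1, of 1 tested gene, and red lines are medians: 2.97 for the 34 sarcomere and Z disc genes, 1.65 for 42 further sarcomere genes, 0.01 for 35 paralogues, -0.03 for 11 smooth muscle markers and -0.45 for 8 satellite cell and myogenic markers. Some genes stand in more than 1 list, and the highest smooth muscle point is Des.

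Smooth muscle also makes Des and Tpm2. Without Des, 10 smooth muscle markers summed to 254 to 506 FPKM in CST and 316 to 501 in Yoda1 libraries, and 4 of the 10 had a positive change. Myh11, the smooth muscle myosin heavy chain, stood at 7.24, 8.36 and 4.81 FPKM in CST mice, against 7.56, 6.72 and 9.48 in Yoda1 mice. The sum and Myh11 thus overlapped between the groups. In 2 of the 10 markers each CST value was above each Yoda1 value (4.52% of all tested genes), and in 0 each was below. Of 9 cardiac markers, Myh6 and Nppa were at 0.0417 FPKM or less in each library, while Actc1, which embryonic skeletal muscle also makes, stood at 11.2, 633 and 3.61 FPKM in CST mice, against 21.1, 528 and 63.5 in Yoda1 mice. The cardiac list summed to 29.8 to 772 FPKM in CST and 62.3 to 714 in Yoda1 libraries. Without Actc1 and Tnnt2 the other 7 cardiac markers summed to 15.5 to 26.4 FPKM in CST and 16.9 to 34.9 in Yoda1 libraries. Some of them were thus detected in each library, unlike Myh6 and Nppa.

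Of 10 satellite cell and myogenic markers, 8 were tested, 0 passed and 2 had a positive change, and the list summed to 14.1, 292 and 9.63 FPKM in CST mice, against 11.7, 276 and 34.4 in Yoda1 mice. Embryonic myosin heavy chain Myh3 stood at 0.207, 49.97 and 0.241 FPKM in CST mice, against 1.94, 40.2 and 6.39 in Yoda1 mice. The fusion factor Mymk stood at 0.896, 56.6 and 1.14 FPKM in CST mice, against 2.34, 66.0 and 6.32 in Yoda1 mice. Both transcripts were highest in CST mouse 2 and Yoda1 mouse 2, the pair whose sarcomere make-up was most alike, and their part in the sarcomere values was not tested.

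Other cell types moved between the libraries as well, and their part was not tested. Neutrophil markers (7 of 7 positive) summed to 1746 to 11124 FPKM in CST and 699 to 4112 in Yoda1 libraries. Fibroblast markers (0 of 9 positive) summed to 3913 to 6334 FPKM in CST and 3700 to 11794 in Yoda1 libraries. Macrophage markers (0 of 7) summed to 1023 to 1399 FPKM in CST and 820 to 3592 in Yoda1 libraries, and adipocyte markers (0 of 7) to 816 to 973 and 952 to 2471.2. Endothelial markers (0 of 7) summed to 100.2 to 216 FPKM in CST and 100.7 to 210.2 in Yoda1 libraries, and Schwann cell markers (4 of 7) to 143 to 212 and 105 to 364. In each of these 6 lists and in the keratinocyte list (13 of 14 positive, median log2 change 0.21) 0 genes passed by limma. The ranges of the sums overlapped between the groups in each of them.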

How the data were processed

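RNA of 6 mouse skins was sequenced, 3 treated with CST and 3 with Yoda1, and the titles of the samples gave the group and the mouse number. The values are FPKM as the authors deposited them, in 1 table of 57010 rows, and the builds GRCm38 and mm10 come from the submitters' processing notes. No aligner, counting tool or strandedness is named in the sources used here. Gene positions come from GENCODE M21 (GRCm38) by gene identifier, not from the table.

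Reads were recovered by finding, per gene, the smallest length that made FPKM times length times depth whole in each library within 0.0001 reads. All 30697 genes above 0 gave whole reads, against 8 of 2084 genes with wrong depths. Counts that share a common factor would be understated.

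Differences were tested with limma 3.58.1 under R 4.3.3 (trend, two-sided, Benjamini-Hochberg) on log2(FPKM + 1) of the 14588 genes whose mean reached 1 FPKM, without covariates. This pseudocount understates the change of low genes. The test was also run on simulated counts with 1 common setting for the spread between libraries. That run does not show how the test behaves for genes spread as widely as the members were in the Yoda1 group. Members, lists and pairs were chosen with earlier results of these data known. Full statistics go to the member of highest level, largest and smallest change and smallest p in each role group, and in other lists values are given for up to 4 genes of smallest p and the first 3 markers, of which 1 gene is not reported here. Alternatives were another pseudocount, other filters and scalings, no trend, library weights, limma-voom on recovered reads, the replicate block and leaving out libraries.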

Additional observations from a re-analysis of the deposited data

How the results depend on the processing

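The 34 tested members kept a positive change under each of the 17 alternatives in which they were tested. The median log2 change stayed between 2.04 (without Yoda1 mouse 1) and 4.25 (library weights), and was 3.43 by limma-voom on recovered reads. No member passed under another pseudocount, filter or scaling, without the trend, by voom or without CST mouse 1 and Yoda1 mouse 3, a setting chosen after seeing the data. With library weights, which ran from 0.193 to 12.8 (highest for Yoda1 mouse 1; the estimation stopped short of its tolerance), 655 genes were called higher and 693 lower in CST, and 34 members were called. Leaving out 1 library gave 0 to 135 genes higher, 0 to 1 lower and 0 to 33 members called. In these settings the CST minus Yoda1 difference in the log2 ratio of Actn2 to Actn3 ran from -0.52 to 0.16, reversed without CST mouse 1 (0.16) and without Yoda1 mouse 1 (0.14), and the cause was not tested. With the replicate block 0 genes passed, 680 had an unadjusted p under 0.05, and the median member change was 2.97. Deviations of same-numbered mice correlated at -0.08, 0.21 and -0.20, and those of differently numbered mice at -0.34 to 0.34. Deviations within a group are tied to each other, so these values cannot decide whether the numbers pair the mice. In Yoda1 mouse 1, where 8 of the 35 genes had under 20 reads, counting limits the values.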
